A study of Homo sapiens with 4 samples.

Results

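The 44 genes described here encode proteins of the G2/M transition and of mitosis: cyclins and CDK1, mitotic kinases, spindle checkpoint and chromosomal passenger proteins, centromere proteins, kinesins, anaphase and cytokinesis factors, TOP2A, MKI67 and FOXM1. They were chosen by symbol from a count table of 18917 genes, with earlier results of these data known, and all 44 were found there. Each passed the filter on low counts (1 CPM or more in 2 or more libraries, where CPM is the read count scaled to the library's total), which 13128 genes passed in all. The study deleted THUMPD1, an adaptor protein of the enzyme that acetylates cytidine in serine and leucine tRNAs, to ask what loss of this modification does to cells. The libraries were made from total RNA of HEK293 cells, an immortalized human embryonic kidney line that the study's methods call HEK-293T, grown in medium with 10% fetal serum and 2 mM glutamine. There were 2 wild-type (WT) libraries and 2 THUMPD1 knockout (KO) libraries, with no other allele or agent in either group. The KO cells were made with CRISPR-Cas9, sorted first as a pool and then as single cells, so the genotype and the history of the edited line cannot be told apart. Nothing in the labels says that the 2 libraries of a genotype came from separate cultures, so each p-value measures the spread between these libraries, which may be technical.

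Levels are given as CPM scaled by edgeR's TMM factors, and each library's value is given in the order replicate 1, replicate 2. THUMPD1 itself was at 46.4 and 42.6 CPM in the WT libraries and at 6.13 and 5.45 CPM in the KO libraries, in the direction of the labels (log2 fold change -2.93, edgeR's quasi-likelihood test). The libraries held 7875722 to 11362363 counts, and the fitted variation between libraries of a genotype was 6.75%. The WT libraries differed from each other by 4.14 times and the KO libraries by 7.2 times the sampling noise (chi-square over genes, per degree of freedom), so none was a repeat deposit. Some transcription factors of the embryonic kidney were present, with SIX2 at a mean of 50.9 CPM and SALL1 at 84.6 CPM in WT. Of the others, OSR1 did not pass the filter and LHX1 lay below 1 CPM in both WT libraries. UMOD and HBB, markers of the adult tubule and of red cells, had 0 counts in every library, which allows up to 0.259 to 0.391 CPM (3 counts). Not all markers of other cell types were absent: COL1A1, a collagen of fibroblasts, was present in both genotypes.

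A cell enters mitosis when CDK1, bound to a B-type cyclin and freed of its inhibitory phosphates by CDC25 phosphatases, becomes active. Aurora and Polo kinases then build the spindle, the spindle checkpoint holds the anaphase promoting complex until every kinetochore is attached, and separase cuts cohesin so that sister chromatids part. The mRNAs of these proteins rise in G2 and fall in G1, through repression by the DREAM complex and activation by B-MYB and FOXM1, and many of their promoters carry a CHR element and CCAAT boxes. In RNA from a whole culture, a larger share of cells in G2/M and more RNA per cell in G2/M cannot be told apart.

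RefSeq promoter windows, 250 bases before to 50 after a start site on GRCh38.p14, were at hand for 37 of the 44 genes. For the CHR element TTTGAA and the variant TTCGAA were searched on both strands, and 1 of them or both occurred in the windows of 28 of these 37 genes (75.7%) against 15.6% of the 10571 tested genes that had a window. CCAAT on either strand occurred in 32 (86.5%, against 43.4%), and 25 (67.6%) held both, against 6.62%. Over all 27305 genes of the promoter table the shares were 19.5%, 39.7% and 7.85%. A match is a description of letters and not of a bound site, and the 2 searches can overlap, as in the run TTTGAATTGG of the MKI67 promoter. The stretches below, the 150 bases before the start site, belong to the 6 genes with the largest log2 fold changes in KO among those with a window and to the 2 genes lower in KO. They are printed 5′ to 3′ on the gene's strand, with the letters searched for the CHR element and for CCAAT, and the same letters read from the other strand (TTCAAA for the first, ATTGG for CCAAT), in capitals.
CENPE (chr4:103198344-103198493, minus strand): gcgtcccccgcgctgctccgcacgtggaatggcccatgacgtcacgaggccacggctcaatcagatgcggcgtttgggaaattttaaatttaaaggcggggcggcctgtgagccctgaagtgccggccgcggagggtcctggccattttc
MKI67 (chr10:128126424-128126573, minus strand): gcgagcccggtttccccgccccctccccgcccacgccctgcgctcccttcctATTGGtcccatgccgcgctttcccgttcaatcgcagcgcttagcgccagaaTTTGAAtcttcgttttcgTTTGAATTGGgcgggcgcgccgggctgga
CENPF (chr1:214603045-214603194, plus strand): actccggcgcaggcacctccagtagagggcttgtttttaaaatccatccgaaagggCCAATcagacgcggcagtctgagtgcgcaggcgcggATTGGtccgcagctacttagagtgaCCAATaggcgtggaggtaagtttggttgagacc
ESPL1 (chr12:53268149-53268298, plus strand): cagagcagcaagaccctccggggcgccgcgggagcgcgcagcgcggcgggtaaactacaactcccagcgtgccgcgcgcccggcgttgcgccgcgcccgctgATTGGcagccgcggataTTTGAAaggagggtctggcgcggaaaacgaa
CCNB2 (chr15:59104996-59105145, plus strand): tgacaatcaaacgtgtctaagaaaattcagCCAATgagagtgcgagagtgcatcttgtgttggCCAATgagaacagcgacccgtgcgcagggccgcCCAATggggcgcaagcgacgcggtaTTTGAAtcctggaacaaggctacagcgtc
DLGAP5 (chr14:55191586-55191735, minus strand): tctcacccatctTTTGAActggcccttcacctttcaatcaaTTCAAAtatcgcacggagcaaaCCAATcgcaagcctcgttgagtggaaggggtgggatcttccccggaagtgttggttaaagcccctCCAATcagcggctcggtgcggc
CCNF (chr16:2429297-2429446, plus strand): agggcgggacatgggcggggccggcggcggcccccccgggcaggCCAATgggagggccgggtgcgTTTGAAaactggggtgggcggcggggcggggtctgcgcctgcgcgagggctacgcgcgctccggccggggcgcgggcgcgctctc
INCENP (chr11:62123861-62124010, plus strand): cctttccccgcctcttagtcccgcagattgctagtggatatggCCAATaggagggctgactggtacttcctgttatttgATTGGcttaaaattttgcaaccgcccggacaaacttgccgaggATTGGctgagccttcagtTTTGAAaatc
Genes that passed the test and genes that did not both held these letters. The CHR letters occurred in 11 of the 15 genes called higher in KO that had a window, in 2 of 2 called lower and in 15 of 20 not called, and the CCAAT letters in 11, 2 and 19 of them. CENPE, the gene with the largest change, has neither motif in the stretch shown, while CCNF and INCENP, both lower in KO, have both.

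Of the 44 genes, 18 were higher in KO, 2 were lower and 24 did not pass the test (edgeR's quasi-likelihood test, Benjamini-Hochberg adjusted p under 0.05 over all 13128 tested genes). The 18 are 40.9% of the genes, where 8.79% of all tested genes were called higher, and the 2 are 4.55%, where 12.1% of all tested genes were called lower. Since the genes were chosen with earlier results of these data known, this contrast is a description and not a test of the group. The changes were small: the median log2 fold change was 0.20, against 0.01 over all tested genes. The values ran from -0.37 (CCNF) to 1.02 (CENPE), with 33 of 44 above 0 (6746 of 13128 over all tested genes). Both KO libraries lay above both WT libraries for 28 genes and below them for 6, and the genotypes overlapped for 10. Over all tested genes 30.4% lay above and 30.0% below. Among the 24 genes that did not pass the test, 10 lay above, 4 below and 10 overlapped.

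The shift was seen in each KO library and not between libraries of a genotype. Summed over the 44 genes, the level was 4482 and 4421 CPM in the WT libraries and 5040 and 4922 CPM in the KO libraries. The median log2 difference over the 44 genes was -0.02 between WT replicate 2 and WT replicate 1, with 19 genes higher in replicate 2, and -0.04 between the KO libraries, with 18 genes higher in replicate 2. Between genotypes the same median was 0.21 and 0.22 for KO replicate 1 against WT replicates 1 and 2, and 0.17 and 0.20 for KO replicate 2. Of the 44 genes, 31 to 36 were higher in KO in these 4 pairs of libraries. Over all tested genes with counts in both libraries, 50.5 to 51.0% were higher in KO, with medians of 0.0045 to 0.008. With 2 libraries a genotype, an exact two-sided permutation test of a single value cannot give a p under 0.333, so no such test was used.

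**Figure D1:**
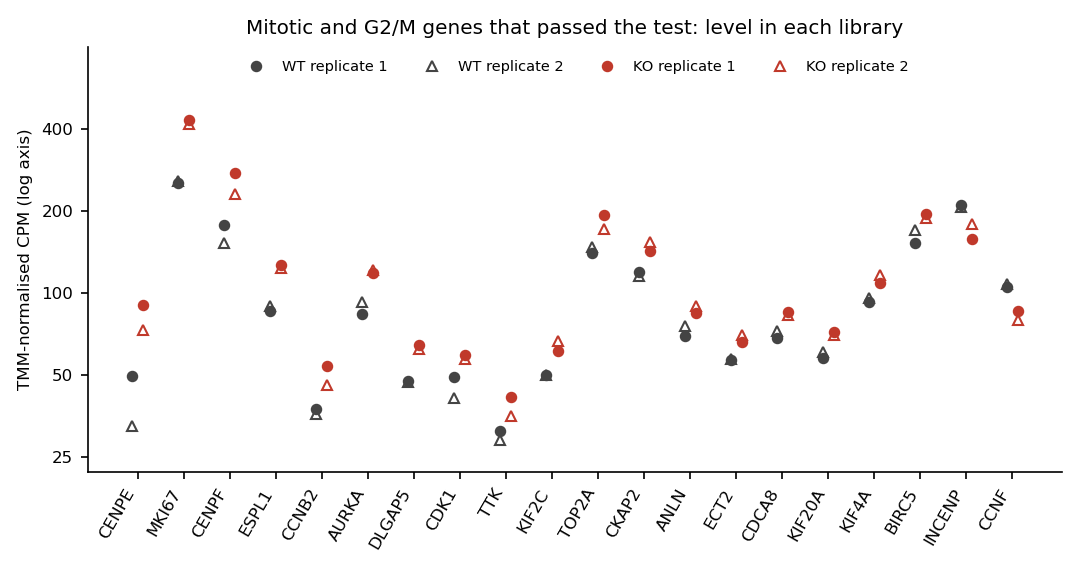
Level (TMM-normalised CPM, log axis) of the 20 mitotic and G2/M genes that passed the test, with grey symbols for the WT libraries and red for the KO libraries, circles for replicate 1 and triangles for replicate 2. For 18 genes both red symbols lie above both grey ones, MKI67 at 432 and 416 CPM against 254 and 258 CPM, and for INCENP and CCNF both lie below.

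In the group of CDK1, its cyclins and its phosphatases, 2 of 7 genes were higher in KO and 1 was lower. CDK1, the kinase that drives entry into mitosis, was at 48.9 and 41.0 CPM in the WT libraries and at 58.9 and 57.0 CPM in the KO libraries. All KO values lay above the WT values, and the log2 fold change was 0.37 (SE 0.11, adjusted p = 0.0143). CCNB2, a B-type cyclin that binds CDK1, was at 37.6 and 35.8 CPM in WT and at 53.8 and 46.0 CPM in KO, a log2 fold change of 0.45 (SE 0.12, adjusted p = 0.00641). The other B-type cyclin of somatic cells did not follow it. CCNB1 was at 181 and 162 CPM in WT and at 164 and 152 CPM in KO, so that the genotypes overlapped (log2 fold change -0.11, SE 0.07, adjusted p = 0.291). CCNF, an F-box protein that directs mitotic regulators to degradation, was the gene with the largest fall, with 105 and 108 CPM in WT and 86.0 and 79.3 CPM in KO. Its log2 fold change was -0.37 (SE 0.08, adjusted p = 0.00175). CCNF lies on chromosome 16, where the median log2 fold change of 571 tested genes was -0.44, against 0.03 over the 12089 genes outside chromosomes 16 and 22. The part of that chromosome-wide difference in the CCNF value was not tested. CCNA2, CDC25B and CDC25C did not pass the test, with log2 fold changes of 0.16, 0.09 and 0.37, although in each both KO libraries lay above both WT libraries.

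Among the Polo, Aurora and NEK kinases and TPX2, 1 of 6 genes changed. AURKA, the kinase of spindle poles and centrosomes, was at 83.9 and 92.7 CPM in WT and at 118 and 121 CPM in KO. The gap between genotypes was wider than that between libraries of a genotype, with a log2 fold change of 0.43 (SE 0.08, adjusted p = 0.000285). Its activator TPX2, which targets it to spindle microtubules, had a value of the other sign that did not pass the test (log2 fold change -0.14, adjusted p = 0.137). AURKB, the catalytic subunit of the chromosomal passenger complex, had a log2 fold change of 0.05 with overlapping genotypes (57.4 and 65.6 CPM in WT, 66.2 and 61.3 CPM in KO). PLK1, which acts from mitotic entry to cytokinesis and lies on chromosome 16, was below WT in both KO libraries, at 191 and 194 CPM against 209 and 226 CPM, and just missed the threshold (log2 fold change -0.18, SE 0.07, adjusted p = 0.0519). PLK4, the kinase of centriole duplication, was above WT in both KO libraries without passing the test (log2 fold change 0.28, adjusted p = 0.0647), and NEK2, a centrosome kinase, had a log2 fold change of 0.17.

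Of 5 spindle checkpoint genes, 1 was higher in KO. TTK, the kinase that starts checkpoint signalling at unattached kinetochores, was at 31.2 and 28.8 CPM in WT and at 41.4 and 35.2 CPM in KO (log2 fold change 0.36, SE 0.13, adjusted p = 0.0489). It lay just inside the threshold, with KO replicate 2 nearer to WT than KO replicate 1. The other genes of this group did not pass the test. BUB1, BUB3 and MAD2L1 overlapped between genotypes, with log2 fold changes of 0.08, 0.16 and -0.02, and BUB1B lay below WT in both KO libraries (log2 fold change -0.18, adjusted p = 0.134).

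All 3 genes listed here for the chromosomal passenger complex changed, and not in the same direction. BIRC5 (survivin), which brings the complex to centromeres, was at 152 and 169 CPM in WT and at 195 and 189 CPM in KO, a log2 fold change of 0.25 (SE 0.07, adjusted p = 0.0109). CDCA8 (borealin), its partner in that task, was at 68.1 and 72.2 CPM in WT and at 85.3 and 82.7 CPM in KO, a log2 fold change of 0.26 (SE 0.09, adjusted p = 0.035). INCENP, the scaffold that binds and activates Aurora B, was at 209 and 206 CPM in WT and at 158 and 179 CPM in KO. Its KO libraries both lay below WT but differed from each other more than the WT libraries did, and its log2 fold change was -0.31 (SE 0.07, adjusted p = 0.00241).

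The centromere and kinetochore genes held the largest change. CENPE, a kinesin that carries chromosomes to the spindle equator, was at 49.3 and 32.3 CPM in WT and at 90.0 and 72.9 CPM in KO. The fold change in the edgeR fit was 2.03. The WT libraries themselves differed widely, and the log2 fold change of 1.02 (SE 0.13, adjusted p = 4.07e-06) fell to 0.73 with WT replicate 2 left out and rose to 1.34 with WT replicate 1 left out, the call being kept each time. CENPF, a large coiled-coil protein that builds up in G2 and binds kinetochores, was at 178 and 153 CPM in WT and at 276 and 230 CPM in KO (log2 fold change 0.62, SE 0.08, adjusted p = 3.25e-06). CENPA, the histone H3 variant that marks centromeres, had a log2 fold change of 0.19 that did not pass the test (adjusted p = 0.458), at 15.3 to 19.3 CPM over all libraries.

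All 6 mitotic kinesins had values above 0, and 3 of them passed the test. KIF2C, which depolymerizes microtubules at centromeres, was at 49.9 CPM in both WT libraries and at 61.2 and 66.6 CPM in KO (log2 fold change 0.36, SE 0.10, adjusted p = 0.0116). KIF4A, a chromosome-bound kinesin of the central spindle, was at 92.9 and 96.0 CPM in WT and at 109 and 116 CPM in KO (log2 fold change 0.25, SE 0.08, adjusted p = 0.021). KIF20A, a kinesin of the central spindle needed for cytokinesis, was at 57.4 and 60.8 CPM in WT and at 71.8 and 69.8 CPM in KO (log2 fold change 0.26, SE 0.09, adjusted p = 0.0497). KIF20A is the called gene nearest to the threshold. The other kinesins were KIF11, KIF18A and KIF23, with log2 fold changes of 0.09, 0.36 and 0.22, and in each both KO libraries lay above both WT libraries.

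Of 4 genes of anaphase and sister separation, 1 changed. ESPL1, the separase that cleaves cohesin, was at 85.4 and 89.8 CPM in WT and at 127 and 123 CPM in KO, well apart, with a log2 fold change of 0.51 (SE 0.08, adjusted p = 2.95e-05). Its inhibitor PTTG1 (securin) had a log2 fold change of 0.08 with overlapping genotypes. CDC20, the activator of the anaphase promoting complex, and UBE2C, its ubiquitin-conjugating enzyme, also overlapped, with log2 fold changes of -0.10 and 0.03.

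Among 5 proteins that bind microtubules and the spindle, 2 genes were higher in KO. DLGAP5 (HURP), which stabilizes kinetochore fibres, was at 47.5 and 47.1 CPM in WT and at 64.1 and 62.3 CPM in KO (log2 fold change 0.42, SE 0.10, adjusted p = 0.00334). CKAP2, a spindle protein, was at 119 and 115 CPM in WT and at 142 and 153 CPM in KO (log2 fold change 0.34, SE 0.07, adjusted p = 0.00164). PRC1, which bundles the microtubules of the central spindle, NUSAP1 and HMMR did not pass the test, with log2 fold changes of -0.13, -0.10 and -0.03. The genotypes overlapped for NUSAP1 and HMMR, while PRC1 lay below WT in both KO libraries.

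Both cytokinesis genes passed the test with nearly equal values. ECT2, the exchange factor that activates RhoA at the division plane, was at 56.5 and 57.1 CPM in WT and at 66.2 and 70.1 CPM in KO (log2 fold change 0.26, SE 0.09, adjusted p = 0.0491). ANLN, the scaffold of the contractile ring, was at 69.1 and 75.3 CPM in WT and at 84.4 and 89.6 CPM in KO (log2 fold change 0.26, SE 0.09, adjusted p = 0.0318). For both, KO lay above WT without overlap, by a margin close to the threshold.

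TOP2A and MKI67, common markers of cycling cells, were both higher in KO. MKI67 (Ki-67), which coats mitotic chromosomes, was at 254 and 258 CPM in WT and at 432 and 416 CPM in KO. With a fold change of 1.66 in the edgeR fit, it had the smallest adjusted p of the 44 genes (log2 fold change 0.73, SE 0.06, adjusted p = 2.89e-09). TOP2A, the topoisomerase that untangles sister chromatids, was at 140 and 148 CPM in WT and at 192 and 171 CPM in KO (log2 fold change 0.34, SE 0.07, adjusted p = 0.0014). FOXM1, the transcription factor that activates many of these genes, was at 325 and 317 CPM in WT and at 341 and 330 CPM in KO. Both KO libraries lay above WT, but the difference did not pass the test (log2 fold change 0.06, SE 0.06, adjusted p = 0.509).

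**Figure D2:**
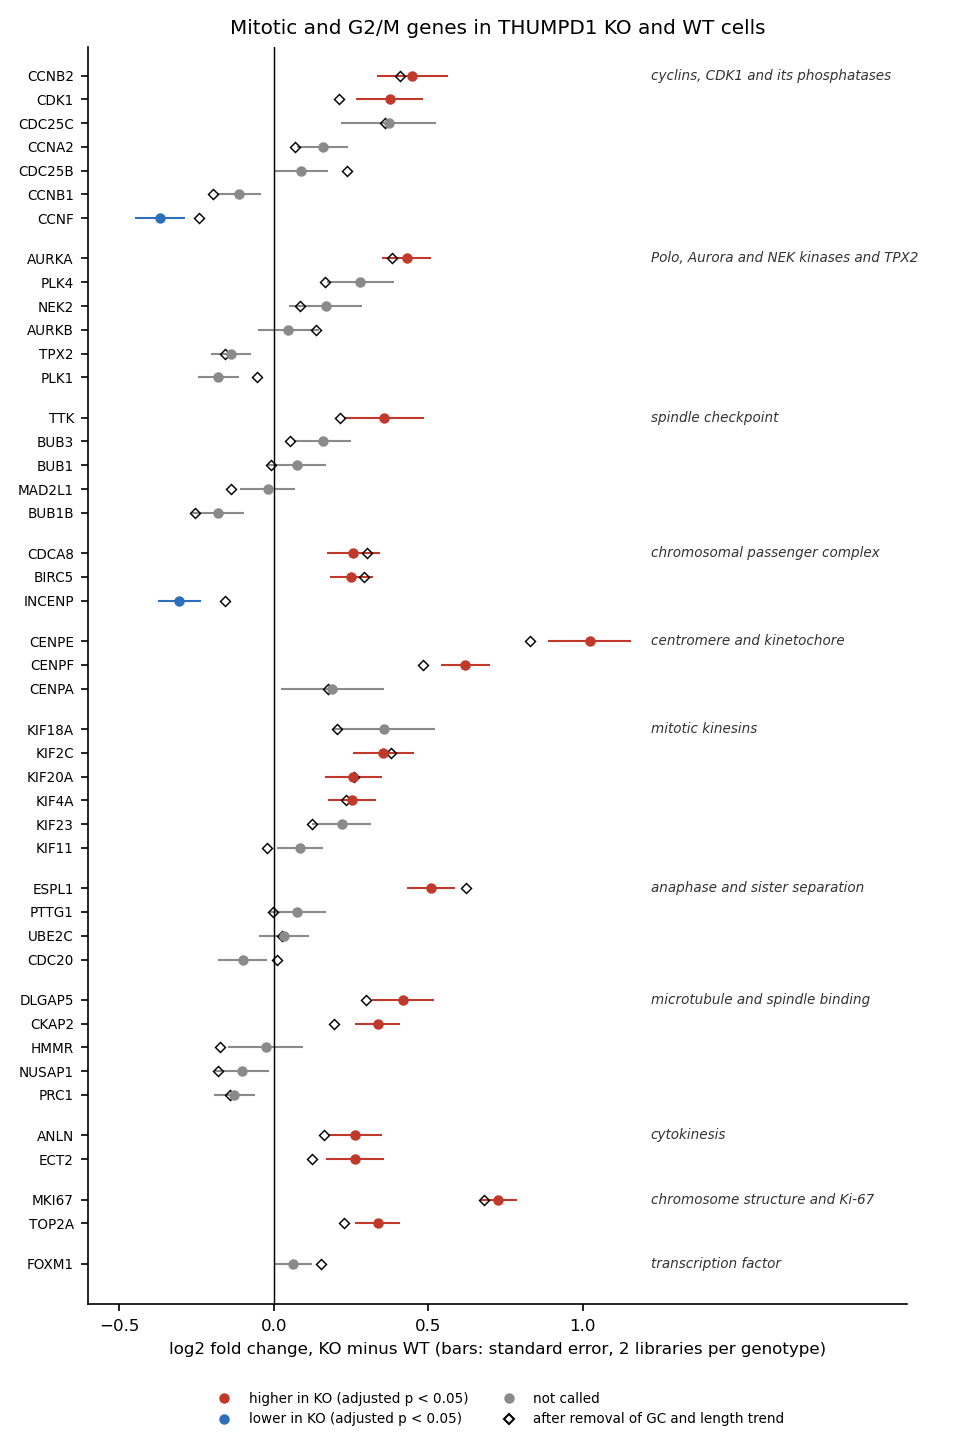
Log2 fold change (KO minus WT, x axis) of all 44 mitotic and G2/M genes, grouped by role, with bars for the standard error, red for higher in KO, blue for lower and grey for not called, and open diamonds for the value after the trends with GC content and transcript length were removed. CENPE (1.02), MKI67 (0.73), CENPF (0.62) and ESPL1 (0.51) lie farthest to the right, and CCNF (-0.37) and INCENP (-0.31) farthest to the left.

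Per kilobase of canonical transcript, the scale on which genes can be set beside each other, the mean level over all libraries was highest for UBE2C (131 CPM per kb), PLK1 (94.9), PTTG1 (94.3), FOXM1 (92.4), CCNB1 (81.3) and BIRC5 (68.5). Of these 6 abundant transcripts only BIRC5 passed the test. The lowest were KIF18A (5.78 CPM per kb), CENPE (7.16), CDC25C (10.3), TTK (11.5), CENPA (12.8) and PLK4 (13.1), of which CENPE and TTK passed. The genes with the largest changes were long: the canonical transcripts of MKI67, CENPF, CENPE and ESPL1 have 12716, 10290, 8541 and 6618 bases. Across the 44 genes, transcript length and log2 fold change had a Pearson r of 0.36 and a Spearman rho of 0.18 (r over all tested genes 0.12), given as a description of genes that share 4 libraries.

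Across the whole transcriptome, AU-rich transcripts were higher and GC-rich ones lower in KO, and the mitotic genes are AU-rich. Their median GC content was 43.8%, against 48.4% over the 12969 tested genes that could be placed. Sorted into 8 bins by GC content, all tested genes had a median log2 fold change of 0.15 in the lowest bin (30.7 to 39.0% GC) and -0.20 in the highest (61.1 to 76.9% GC). The mitotic genes of the lowest bin had a median of 0.34 (11 genes, 7 called higher), where 16.3% of all genes of that bin were called higher. In the second bin, at 39.0 to 41.8% GC, they had 0.19 (6 genes, 2 called higher) and all genes 0.10, with 14.8% called higher. In the third, at 41.8 to 44.8% GC, they had -0.01 (6 genes, 1 called higher) and all genes 0.10, with 12.9% called higher. In the fourth bin, at 44.8 to 48.4% GC, their median was 0.25 (9 genes, 4 called higher) and that of all genes 0.04, with 9.19% called higher. The fifth and sixth bins held 4 and 2 mitotic genes, with medians of 0.25 and 0.05 against -0.01 and -0.06. Of these, 3 and 0 were called higher (all genes 7.59% and 4.75%). In the seventh, at 56.9 to 61.1% GC, their median was -0.14 (6 genes, 1 called higher and 2 lower) and that of all genes -0.12, with 2.96% called higher and 20.9% lower. Over the 44 genes, GC content and log2 fold change had a Pearson r of -0.40 and a Spearman rho of -0.39 (r over all tested genes -0.29). The cause of the trend was not tested.

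With the trends with GC content and length removed by gene-wise offsets, an alternative chosen after seeing the data, 14 of the 44 genes (31.8%) were higher and 3 (6.82%) were lower, where 8.2% of all tested genes were higher and 11.0% lower. The median log2 fold change of the 44 genes was then 0.16. Of the 18 genes called higher, 13 kept the call, MKI67 with a log2 fold change of 0.68, CENPE with 0.83, ESPL1 with 0.62 and CENPF with 0.48. CDK1 (0.21), TTK (0.21), CKAP2 (0.20), ECT2 (0.12) and ANLN (0.16) no longer passed, and CDC25B (0.24) now did. Of the genes lower in KO, CCNF kept the call at -0.24, INCENP lost it at -0.16, and CCNB1 (-0.20) and BUB1B (-0.26) gained one. GC content among the genes called higher ran from 35.1% in CENPE to 57.0% in ESPL1, whose log2 fold change rose from 0.51 to 0.62 when the trend was removed.

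**Figure D3:**
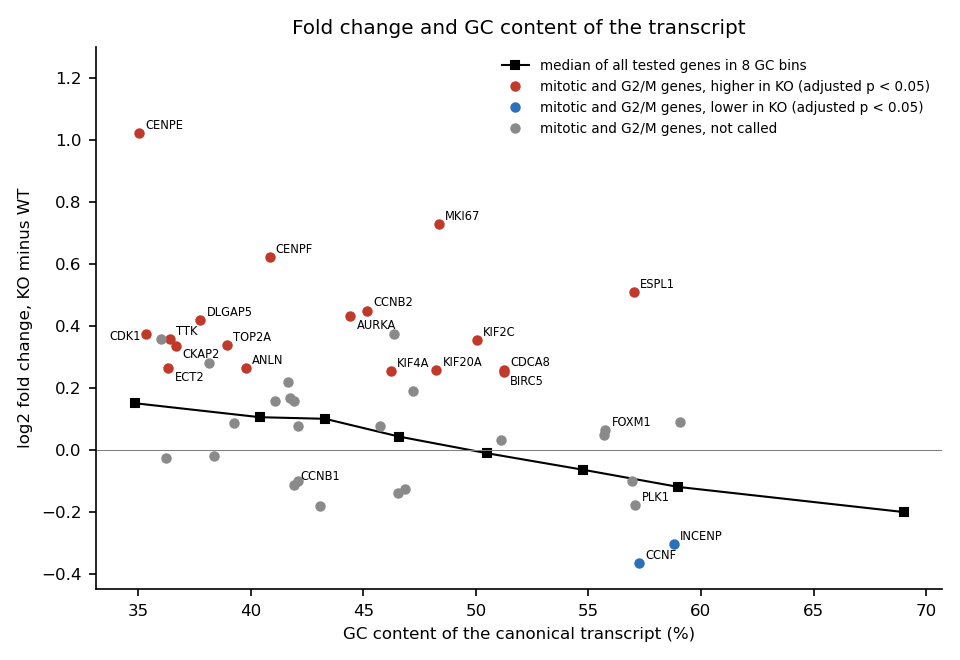
Log2 fold change (KO minus WT, y axis) against GC content of the canonical transcript (%, x axis) for the 44 mitotic and G2/M genes, coloured by call, with black squares for the median of all tested genes in 8 GC bins. The squares fall from 0.15 to -0.20, and CENPE, MKI67, CENPF and ESPL1 lie farthest above them at 35.1, 48.3, 40.8 and 57.0% GC.

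The study found the acetyl mark on all leucine and serine tRNA genes sampled in mouse liver. In HEK-293T cells it reported higher ribosome occupancy in KO at the leucine codons UUA, UUG, CUA and CUU. Its reporters with repeats of UUA or CUA gave no significant difference in protein, and in CDK1 ribosomes were still seen downstream of strong pauses. The codon use it examined was that of genes with altered translation efficiency, not altered mRNA. A link of these codons to mRNA level was not tested here. The mitotic genes use UUA, UUG, CUA and CUU often: a median of 60.1% of their leucine codons were of this kind, against 40.8% over 12923 tested genes. The share was 87.1% in ECT2 and 75.0% in CDK1, and 12.5% in INCENP and 16.5% in CCNF, the 2 genes lower in KO. Among genes called higher, the share was below 40.8% in ESPL1 (32.0%) and CDCA8 (37.9%). In MKI67 it was 46.5%, above the median of all tested genes and below that of the mitotic genes. Among genes not called, it was 81.8% in KIF18A, 81.6% in PLK4 and 74.0% in HMMR. Their log2 fold changes were 0.36, 0.28 and -0.03, so a gene not called was not always a gene with a value near 0. The lowest shares among genes not called were 20.7% in CDC25B, 25.4% in PLK1 and 27.5% in AURKB, with log2 fold changes of 0.09, -0.18 and 0.05. Over the 44 genes, this share and the log2 fold change of the mRNA had a Pearson r of 0.45 and a Spearman rho of 0.42, against an r of 0.23 over the 12923 tested genes, and the r over the 44 was 0.16 with the GC and length trends removed. These codons are by their letters AU-rich, so the correlation with it and that with GC content are not separate measurements.

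The calls of single genes depended on the libraries, while the median log2 fold change of the 44 genes lay between 0.18 and 0.23 with each library left out in turn. Without KO replicate 1, 9 genes were higher and 1 lower (all tested genes 4.58% and 7.76%), and CDK1, CCNB2, TTK, BIRC5, CDCA8, KIF20A, ECT2, ANLN, TOP2A and INCENP lost their calls. Without KO replicate 2, 12 were higher and 2 lower (all tested genes 6.95% and 10.6%), and CDCA8, KIF20A, KIF2C, KIF4A, ECT2 and ANLN lost theirs. Without WT replicate 1, 15 were higher and 3 lower (all tested genes 8.36% and 11.4%). Of the 18, 12 kept the call, with BIRC5, CDCA8, KIF20A, KIF4A, ECT2 and ANLN lost and PLK4, BUB3, KIF18A (higher) and PLK1 (lower) gained. Without WT replicate 2, 13 were higher and 2 lower (all tested genes 6.84% and 9.94%), and CDK1, TTK, CDCA8, KIF20A and ECT2 lost their calls. DESeq2 called 10 of the 44 higher and 2 lower, where it called 5.22% of 12364 genes higher and 9.05% lower. Scaling by library size alone gave 23 higher and 2 lower, where 15.9% of all tested genes were then higher and 8.82% lower. The genes MKI67, CENPE, CENPF, ESPL1, AURKA and DLGAP5 (higher) and CCNF (lower) passed under all 12 alternatives in which every one of the 44 genes was tested, and all 20 called genes kept their sign in them. The other alternative left out the genes of chromosomes 16 and 22, CCNF among them.

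Other genes of mitosis and of its control, of DNA replication and of cell cycle inhibition were taken as 8 lists, whose shares stand beside 8.79% higher and 12.1% lower over all tested genes. These lists too were chosen with earlier results of these data known. Of 23 condensin and cohesin genes, 10 (43.5%) were higher and 2 (8.7%) lower. SMC4, a core ATPase of condensin, had 0.60 on the log2 scale (adjusted p = 1.78e-07), and its partners NCAPD2 and NCAPG of condensin I had 0.45 each (adjusted p = 9.42e-06 and 0.00125). The condensin genes SMC2 and NCAPH did not pass the test, at 0.11 and -0.0006 with overlapping genotypes. STAG2, a cohesin subunit, had 0.30 (adjusted p = 0.00156). NCAPH2 of condensin II, on chromosome 22, where the median over 309 tested genes was -0.42, had -0.47 (adjusted p = 0.000158), and the cohesin ATPase SMC1A had -0.19 (adjusted p = 0.0367). With the GC and length trends removed, 4 of the 23 (17.4%) were higher and 2 (8.7%) lower, where all tested genes then had 8.2% and 11.0%.

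Of 33 kinetochore genes tested, 9 (27.3%) were higher and 4 (12.1%) lower. SKA2 and SKA1, which couple kinetochores to microtubules, had log2 fold changes of 0.60 and 0.68 (adjusted p = 2.15e-07 and 0.0018), CENPI had 0.49 (adjusted p = 0.00474) and NSL1 of the MIS12 complex had 0.32 (adjusted p = 0.00718). CENPT on chromosome 16 and CENPM on chromosome 22, members of the inner kinetochore, had -0.54 and -0.44 (adjusted p = 0.00141 and 0.00474). OIP5 and MIS18A, which prepare centromeres for new CENPA, had -0.57 and -0.27 (adjusted p = 0.0264 and 0.0398). With the trends removed, 5 were higher and 5 lower (15.2% each).

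Of 29 spindle and cytokinesis genes, 9 (31.0%) were higher and 1 (3.45%) lower. The smallest adjusted p among them was that of ASPM, a spindle pole protein, with a log2 fold change of 0.55 (adjusted p = 4.15e-05). CEP192 of the centrosome had 0.47 (adjusted p = 0.00117), CIT of the midbody 0.30 (adjusted p = 0.00201) and the kinesin KIF14 0.42 (adjusted p = 0.0129), while KIF22, a chromosome-arm kinesin on chromosome 16, had -0.31 (adjusted p = 0.0146). With the trends removed, 4 (13.8%) were higher and 1 (3.45%) lower. Of 19 genes of the anaphase promoting complex, shares near those of all tested genes were called, with 2 (10.5%) higher (its inhibitor FBXO5, log2 fold change 0.50, adjusted p = 0.000188, and ANAPC16, 0.38, adjusted p = 0.0152) and 1 (5.26%) lower (ANAPC7, -0.26, adjusted p = 0.0225).

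The list of mitotic entry and exit control was split, with 7 of 33 (21.2%) higher and 5 (15.2%) lower. HMGB2, DEPDC1 and DEPDC1B had log2 fold changes of 0.43, 0.51 and 0.46 (adjusted p = 2.03e-05, 0.000226 and 0.013), and CCNB3 was counted among the 7 with 4 and 11 counts in WT and 52 and 23 in KO. It passed the filter on low counts only through KO, where it was high, so its call supports nothing. CKS1B, which binds cyclin-dependent kinases, had -0.46 (adjusted p = 8.88e-05). PKMYT1, the kinase that holds CDK1 inactive, and ARL6IP1, both on chromosome 16, had -0.72 and -0.70 (adjusted p = 0.000522 and 3.76e-07), and ARHGAP11A had -0.26 (adjusted p = 0.023). With the trends removed, 6 (18.2%) were higher and 7 (21.2%) lower.

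Of 24 E2F, DREAM and MuvB regulators, 4 (16.7%) were higher and 1 (4.17%) lower. E2F1 and E2F7 had log2 fold changes of 0.45 and 0.46 (adjusted p = 0.000635 and 0.00156), TFDP1 and NFYA had 0.20 and 0.28 (adjusted p = 0.0305 and 0.0332), and E2F4 on chromosome 16 had -0.33 (adjusted p = 0.0134). Of 57 genes of DNA replication and G1/S, 6 (10.5%) were higher and 11 (19.3%) lower, with a median log2 fold change of 0.01. TYMS and RRM2 of nucleotide synthesis had 0.62 and 0.48 (adjusted p = 1.25e-05 and 2.07e-05), MCM10 had 0.37 (adjusted p = 0.00156) and CCNE2 0.78 (adjusted p = 0.0063). MCM5, UHRF1 and CCND1 had -0.42, -0.30 and -0.52 (adjusted p = 0.000126, 0.0019 and 0.00523). Of this list's genes called in either direction, 17 in all, 14 were left without the genes of chromosomes 16 and 22. The difference in counts between the replication and G1/S genes and the mitotic genes was not tested.

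Of 11 inhibitors of the cell cycle tested, 2 (18.2%) were higher and 1 (9.09%) lower. CDKN1A (p21), which blocks cyclin-dependent kinases, was at 20.7 and 22.8 CPM in WT and at 32.3 and 42.5 CPM in KO (log2 fold change 0.77, adjusted p = 0.000397). CDKN2C, an inhibitor of CDK4 and CDK6, had a value of 0.40 on the log2 scale (adjusted p = 0.00597) and GADD45A had -0.34 (adjusted p = 0.0457). CDKN1A and MKI67 were thus both higher in the same KO libraries.

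**Figure D4:**
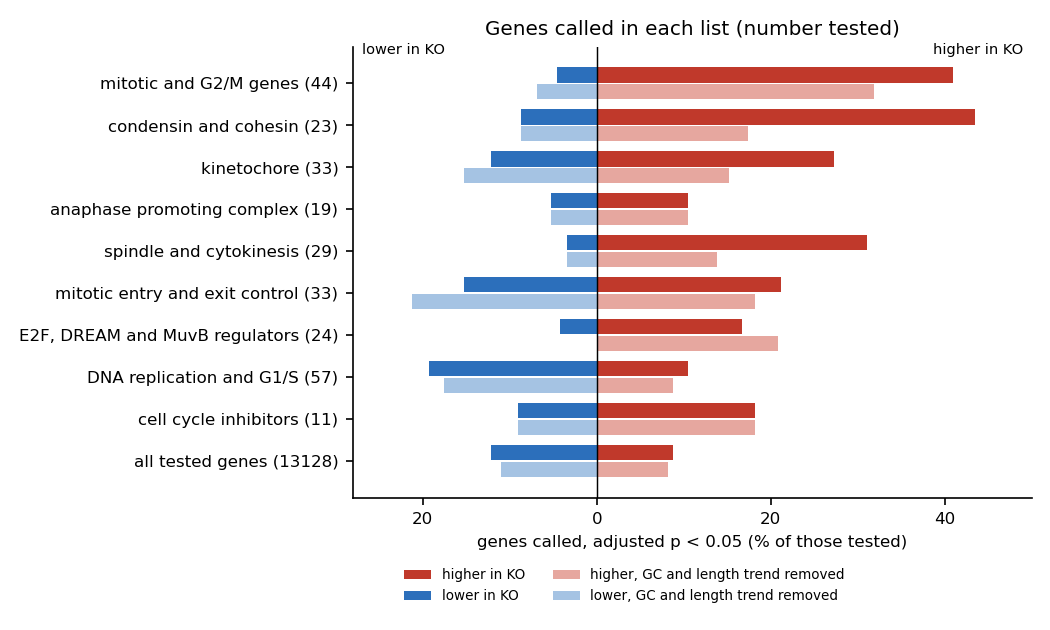
Share of tested genes called (%, adjusted p under 0.05) among the mitotic and G2/M genes, in the 8 other lists and over all tested genes, with bars to the right for higher in KO and to the left for lower, and paler bars for the values after the GC and length trends were removed. The mitotic and G2/M genes (40.9% higher, 4.55% lower) and condensin and cohesin (43.5% higher, 8.7% lower) have the longest bars to the right. DNA replication and G1/S (10.5% higher, 19.3% lower) and all tested genes (8.79% higher, 12.1% lower) both have the longer bar on the left.

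Several of these genes overlap another gene, and the sources used here do not say whether counting used the strand, so reads from shared sequence cannot be told apart. Among the called genes this concerns KIF20A, which overlaps BRD8 (log2 fold change 0.17, not called) and CDC23 (-0.07, not called), KIF4A and ANLN. Among those not called it concerns CCNA2, CDC25C, PLK1, BUB1B, CENPA, PRC1, NUSAP1, which overlaps OIP5, and FOXM1. Copies near in sequence took few counts: KIF4B, the copy of KIF4A, had 1 to 6 counts a library and PTTG2, that of PTTG1, had 0 in all, which allows up to 3 counts, while the 44 genes themselves had 117 to 4999 counts in every library.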

How the data were processed

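Total RNA was sequenced from 2 WT and 2 THUMPD1 KO HEK293 libraries (paired-end, Zymo-Seq RiboFree total RNA kit per the labels). The authors deposited raw read counts per gene symbol, not normalised. The submitters' processing notes name hg19, whereas the study's RNA-seq methods name another kit, GRCh38 and 3 samples of this line, of which any beyond these were not analysed here, so the counter behind this table is not given in the sources used here. A deposited table of the authors' own comparison (mean level, log2 fold change, its error and p-values, with columns named as in DESeq2 output) was not used.

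The genes that reached 1 CPM in 2 or more libraries (13128 of 18917) were tested with edgeR 4.0.16 (R 4.3.3, TMM factors, quasi-likelihood test, KO against WT, no covariate), with Benjamini-Hochberg adjustment over all of them and a threshold of 0.05. SE values come from that test. The libraries held 7875722 to 11362363 counts, so 3 counts stand for 0.259 to 0.391 CPM, which covers counting error only. Alternatives used DESeq2 1.42.0, limma 3.58.1 (voom), other filters and scalings, a replicate block and each library left out, and one, chosen after seeing the data, entered lowess trends (span 0.2) with GC content and length as offsets. Length, GC content and codons came from GENCODE 44 canonical transcripts, matched for 12969 tested genes, and promoters from RefSeq on GRCh38.p14. The fit was tested on simulated data. The genes and lists were chosen with earlier results of these data known. All 44 genes could be named. Those with adjusted p under 0.05, with CCNB1 and FOXM1, got full values, and each other list was given by its called genes of smallest adjusted p, up to 4 a direction. A few genes that this rule or the marker check would name are not reported here.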

Additional observations from a re-analysis of the deposited data

How the results depend on the processing

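The sign of the median log2 fold change of the 44 mitotic genes and the signs of the 20 called genes were kept under the 12 alternatives that tested all 44, while the counts of calls moved. The median was 0.29 with library size alone, 0.23 with upper quartile scaling, 0.24 with limma-voom, 0.16 with the GC and length trends removed, 0.235 without genes of chromosomes 16 and 22 and 0.18 to 0.23 with each library left out. DESeq2 called 10 of the 44 genes higher, where it called 5.22% of 12364 genes higher. In both directions together it called 1764 of all genes (edgeR 2748). By list it called 7 kinetochore genes, 1 of the anaphase promoting complex, 4 of spindle and cytokinesis and 6 of mitotic entry and exit. It also called 2 E2F, DREAM and MuvB regulators and 11 genes of replication and G1/S. Library size alone called 8 E2F, DREAM and MuvB regulators, and 3239 of all genes. Removal of the GC and length trends left 6 condensin and cohesin genes and 5 of spindle and cytokinesis, and 2519 of all genes. Without genes of chromosomes 16 and 22, 1 of the remaining 42 was lower, since CCNF lies on 16. With each library left out, which assumes that the lone library varies like those of the other genotype, 9 to 15 of the 44 were higher and 1 to 3 lower, and 1620 to 2591 of all genes were called. The lists then ranged over 6 to 11 genes called for condensin and cohesin, 6 to 12 for the kinetochore, 1 to 3 for the anaphase promoting complex, 3 to 8 for spindle and cytokinesis, 2 to 5 for E2F, DREAM and MuvB regulators, 10 to 18 for replication and G1/S and 1 to 3 for inhibitors. The lowest of these counts came without KO replicate 1, except for the anaphase promoting complex, whose lowest came without WT replicate 1 and without KO replicate 2. Apart from construction (other scaling, fewer samples), the cause was not tested. A replicate number as a block gave 19 higher and 3 lower of the 44. Of all 13128 tested genes it called 3222, with 1396 (10.6%) higher and 1826 lower. The labels do not say whether the numbers pair libraries across genotypes. The deviations of WT and KO replicate 1 correlated at 0.0244 over 13128 genes, which cannot decide it with 2 libraries a genotype. With 4 libraries the precision was limited: CDC25C and KIF18A, with log2 fold changes of 0.37 and 0.36, had SE values of 0.15 and 0.17 and did not pass the test.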

Other observations

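Of the transcription factors of the embryonic kidney reported here, OSR1 was below the filter and LHX1 passed the test. The count of LHX1, which acts early in nephron formation, was 6 in each WT library, against 37 and 27 for KO (0.782 and 0.546 CPM against 3.20 and 2.54 CPM), with a log2 fold change of 2.12 (SE 0.61, adjusted p = 0.0138, edgeR's quasi-likelihood test). The WT libraries lay below the filter of 1 CPM, so LHX1 was tested only because of its level in KO, and its call supports nothing. PAX2, EYA1 and WT1 had log2 fold changes of 0.15, 0.10 and -0.02 and did not pass the test. Markers of other lineages were at or near 0: PTPRC (leukocytes) had 0 to 5 counts, ALB (hepatocytes) 0 to 2 and PECAM1 (endothelium) 0 to 1. COL1A1, a collagen of fibroblasts, was present at 25.3 and 20.7 CPM in WT and at 21.2 and 18.5 CPM in KO (adjusted p = 0.401).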
